A study of Gallus gallus with 4 samples.

Results

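Narrow active H3K4me3 peaks are described in otic-epibranchial progenitors (OEPs), chick ectoderm that later forms the inner ear and epibranchial neurons. A peak was counted as narrow and active when it lay on a numbered chromosome, was under 1570 bp wide, shared at least 1 bp with an H3K27ac peak and shared none with an H3K27me3 peak. Of 27344 H3K4me3 peaks, 25308 lay on the 32 numbered chromosomes with H3K4me3 peaks, 24051 of these were under the width limit, 8515 of these met H3K27ac, and 7139 of these were free of H3K27me3. The 7139 peaks were 26.1% of all H3K4me3 peaks and 29.7% of the narrow peaks on numbered chromosomes (95% interval 29.1 to 30.3%). They were chosen by measured values, namely the width of the H3K4me3 peak and its overlap with the other marks, so that all comparisons with other peaks below are descriptions without a test.

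OEP ectoderm was dissected from chick embryos at ss8-9 (8 to 9 somites), about 200 pieces per the study's methods, and the same stage and tissue served all libraries. ChIPseq was performed for H3K4me3, H3K27ac and H3K27me3, with 1 library per mark, and an input library enters no comparison here. The labels give no genotype or treatment, and the tissue is a pool of many embryos that can hold neighbouring cell types. The deposited lists hold peaks and no read counts, so the depth of each library is unknown, and the spread between embryos or immunoprecipitations was not measured.

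Trimethylation of histone H3 at lysine 4 is placed around active transcription start sites, and acetylation at lysine 27 is found at active promoters and active enhancers. Trimethylation at lysine 27 is placed by Polycomb complexes and marks repressed genes. A site with H3K4me3 and H3K27ac but no H3K27me3 therefore carries the marks usually found at a promoter in use, although weak H3K4me3 also occurs at some active enhancers. The chicken genome is made of a few large chromosomes and many small ones, the small ones being rich in genes. Whether a given peak lies at a start site was not analysed here, because the annotation at hand follows another assembly than GalGal6, the assembly of the peak lists.

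The remaining narrow peaks on numbered chromosomes served for comparison. H3K4me3 stood alone, with neither other mark, at 12224 peaks (50.8%). It met H3K27me3 without H3K27ac at 3312 peaks (13.8%) and both other marks at 1376 peaks (5.72%). A further 566 peaks met the rule on the marks and were 1570 bp or wider, and these are called broad active peaks below.

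Narrow active peaks were under 1570 bp wide by the rule. Their width ranged from 229 to 1568 bp, with a median of 488 bp and quartiles of 302 and 879 bp. All of them together covered 4.37 Mb. The median width was 416 bp over all narrow peaks on numbered chromosomes and 443 bp over all H3K4me3 peaks. The H3K4me3-only peaks had a median of 363 bp (quartiles 266 and 729 bp), the peaks with H3K27me3 without H3K27ac 478 bp, and the peaks with both other marks 518 bp. Widths below 400 bp were found for 2950 narrow active peaks (41.3%, 95% interval 40.2 to 42.5%) and for 6648 H3K4me3-only peaks (54.4%, 53.5 to 55.3%). A longer peak meets peaks of another mark more readily, so the overlap rule itself favours this difference in width. The most common width of narrow active peaks was 250 to 299 bp, with 1088 peaks, and the counts per 50 bp then stayed between 200 and 275 over all bins between 500 and 1099 bp. The lower end of the range is a floor of the list itself, since 34 narrow active peaks sat at exactly 229 bp, the smallest width of any H3K4me3 peak.

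**Figure D1:**
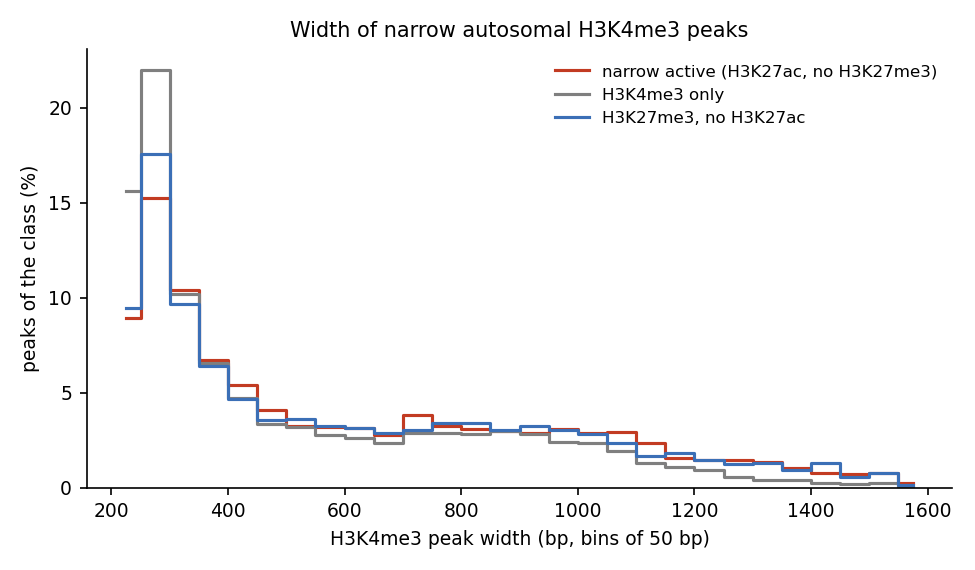
Width of H3K4me3 peaks in bp (bins of 50 bp) against the share of each class in percent, for narrow active peaks, H3K4me3-only peaks and peaks with H3K27me3 without H3K27ac. The bin of 250 to 299 bp holds 15.2% of the narrow active peaks and 21.99% of the H3K4me3-only peaks. Overlap with another mark itself favours wider peaks.

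At the width limit the peaks just inside and just outside it looked alike in kind. The 5 widest members measured 1566 to 1568 bp. The widest of all, chr6:11283282-11284849 (1568 bp), had an H3K4me3 fold enrichment of 5.34 and an H3K27ac peak of 1971 bp over it, whereas chr7:33222207-33223772 (1566 bp, 2.79-fold) touched its H3K27ac peak with 7.15% of its length only. The other 3 were chr1:193618155-193619720 (3.07-fold), chr13:10782363-10783928 (3.14-fold) and chr26:3532246-3533811 (2.68-fold). Just outside the limit lay chr3:4540500-4542069 (1570 bp, 3.20-fold), chr8:4289544-4291113 (1570 bp, 3.18-fold), chr4:28901106-28902676 (1571 bp, 3.09-fold), chr1:53355768-53357339 (1572 bp, 2.53-fold) and chr1:106286709-106288280 (1572 bp, 3.69-fold). At the other end, the first of the narrowest peaks by chromosome and position, chr1:16061387-16061615, was 229 bp wide with a fold enrichment of 2.10 and lay wholly inside an H3K27ac peak of 1679 bp.

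The strength of a peak was read from its fold enrichment, the ratio of H3K4me3 signal to local background averaged over the peak as given by the authors' peak caller. Narrow active peaks had a median fold enrichment of 3.02 (quartiles 2.75 and 3.48), with a lowest value of 1.31 and a highest of 11.9. The medians of the other narrow classes were close to it, at 2.92 for H3K4me3-only peaks, 2.94 with H3K27me3 without H3K27ac and 3.09 with both other marks. The classes parted in the upper tail. A fold enrichment of at least 4 was reached by 805 narrow active peaks (11.3%, 95% interval 10.6 to 12.03%) and by 468 H3K4me3-only peaks (3.83%, 3.495 to 4.18%), against 7.68% of all H3K4me3 peaks. The share was 8.61% (7.67 to 9.61%) for peaks with H3K27me3 without H3K27ac, 13.2% (11.4 to 15.1%) for peaks with both other marks and 25.3% (21.7 to 29.1%) for broad active peaks, so that a high share was also found at sites with H3K27me3. Seen from the other side, narrow active peaks were 46.3% (43.9 to 48.7%) of the narrow peaks that reached 4, against 29.7% of all narrow peaks.

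The stricter limit of q = 0.01 was passed by 3585 narrow active peaks (50.2%, 49.1 to 51.4%) and by 3839 H3K4me3-only peaks (31.4%, 30.6 to 32.2%), against 43% of all H3K4me3 peaks. The share was 52.5% for peaks with H3K27me3 without H3K27ac, 56.0% with both other marks and 71.0% for broad active peaks. Applied to all 3 lists before the marks were overlapped, this limit left 2955 narrow active peaks, of which 24.8% had a fold enrichment of 4 or more. Spearman's rank correlation between fold enrichment and width was −0.05 over the 7139 narrow active peaks of the same library, yet the relation was uneven. In 10 groups of equal size by fold enrichment, median width was 442 bp in the strongest and 527 bp in the weakest. Counted from the strongest, group 3 had the lowest (413.5 bp) and group 8 the highest (570.5 bp). A fold enrichment of at least 4 was reached by 12.7% both under 400 bp and from 1000 bp, but by 8.32% from 700 to under 1000 bp.

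**Figure D2:**
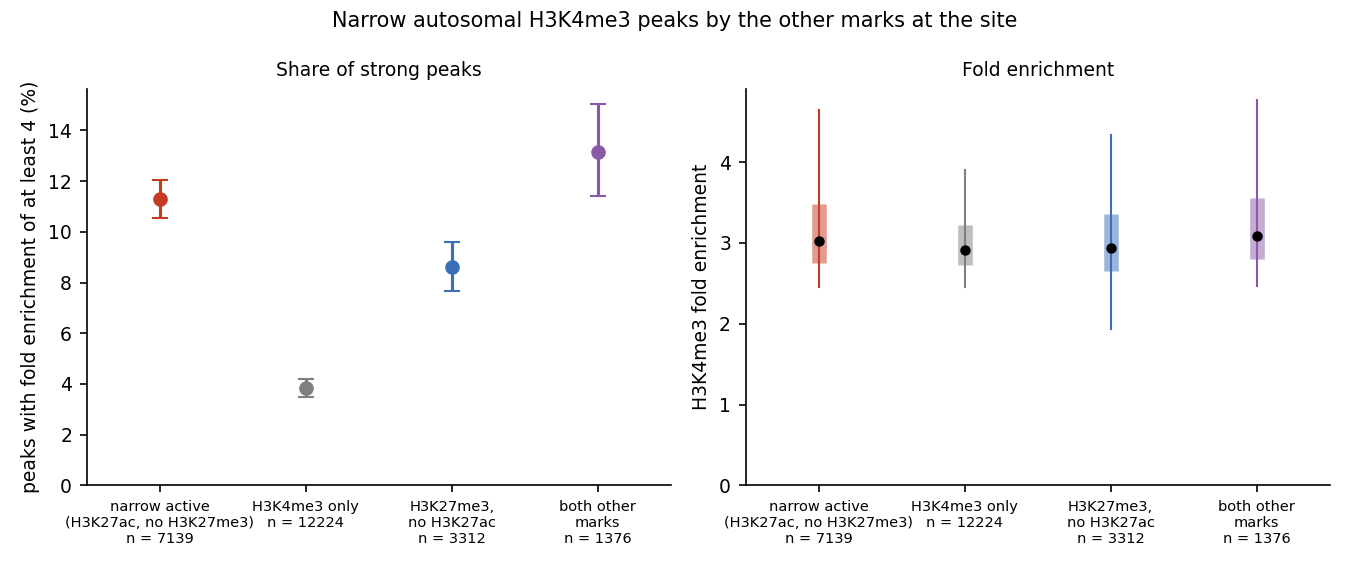
Narrow H3K4me3 peaks on numbered chromosomes by the other marks at the site, with narrow active peaks at the left. Left, percent of peaks at or above a fold enrichment of 4, with exact 95% intervals for counting error (11.3% of narrow active peaks, 3.83% of H3K4me3-only peaks); right, H3K4me3 fold enrichment, with the median as a dot, the quartiles as a bar and the 5th to 95th percentile as a line.

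The 5 strongest narrow active peaks were also marked by H3K27ac well above its usual level. On chr2:5901376-5901640 an H3K4me3 peak of 265 bp reached an 11.9-fold enrichment, and its H3K27ac peak of 479 bp reached 5.03. Next came chr15:7108347-7109177, 831 bp wide and 10.98-fold enriched, whose H3K27ac peak (chr15:7108349-7109175, 4.72-fold) lay over it base for base apart from 2 bp at each end. The peak chr17:5838701-5839098 (398 bp, 10.6-fold) and its H3K27ac peak of 389 bp (5.68-fold) were likewise almost the same interval, as were chr2:129063247-129063655 (409 bp, 10.1-fold) and its H3K27ac peak of 401 bp (5.69-fold). The last of the 5, chr2:65685077-65685341 (265 bp, 9.50-fold), lay at the edge of a longer H3K27ac peak of 1126 bp (5.06-fold) and had no other H3K27ac peak within 20 kb, against 12 for the site on chromosome 17. None of the 5 lay within 20 kb of an H3K27me3 peak, the nearest distances being 21.4 to 60.3 kb.

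The narrow active peaks touched 7002 H3K27ac peaks, 16.1% of the 43416 H3K27ac peaks on numbered chromosomes (15.8 to 16.5%). The pairing was almost one to one. A single H3K27ac peak was met by 7134 narrow active peaks and 2 H3K27ac peaks by the other 5, while 6869 H3K27ac peaks held 1 narrow active peak, 125 held 2, 7 held 3 and 1 held 4. The H3K27ac peaks with a narrow active peak were wider, which the rule itself favours, since a longer peak meets others more readily. Their median width was 979 bp, against 726.5 bp for the 36414 without one, and their median fold enrichment was higher, at 2.83 against 2.64. A fold enrichment of H3K27ac of at least 4 was reached by 473 of them (6.76%, 6.18 to 7.37%) and by 820 of those without (2.25%, 2.10 to 2.41%), beside 3.07% of all H3K27ac peaks. The widest and the strongest H3K27ac peaks were nevertheless not among them. The maximum width was 20964 bp with a narrow active peak and 21843 bp without, and the maximum fold enrichment 8.95 and 9.44.

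The level of one mark went with the level of the other. Spearman's rank correlation between the fold enrichment of a narrow active peak and that of its H3K27ac peak was 0.406 over 7139 peaks. All of these values come from the same 2 libraries, of the same tissue and stage. The rank correlation was 0.409 for peaks under 400 bp and 0.402 for wider ones, and 0.415, 0.412 and 0.388 on large, middle and small chromosomes (size classes as defined below). Values of the same order were found for broad active peaks (0.480, n = 566), for peaks with both other marks (0.392, n = 1376) and between H3K4me3 and H3K27me3 at peaks with H3K27me3 without H3K27ac (0.357, n = 3312), so that a relation of this size was not limited to the activating marks. Among the 805 narrow active peaks with an H3K4me3 fold enrichment of 4 or more, the rank correlation was lower, at 0.244. The cut narrows the range of H3K4me3 values, which itself favours a lower rank correlation.

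When narrow active peaks were put into 10 groups of equal size by H3K4me3 fold enrichment, the median H3K27ac fold enrichment was 3.35 in the strongest group (H3K4me3 4.11 to 11.9) and 2.42 in the weakest (1.31 to 2.57). The share with an H3K27ac fold enrichment of at least 4 was 25.4% in the strongest group and 0.982% in the weakest. Strong signal of both marks at one site was still uncommon. Both fold enrichments were at least 4 at 188 narrow active peaks (2.63%), H3K4me3 alone at 617, H3K27ac alone at 291 and neither at 6043. The H3K4me3 value was the higher one at 4795 peaks (67.2%), although the 2 scales come from different antibodies and are not comparable in absolute terms.

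**Figure D3:**
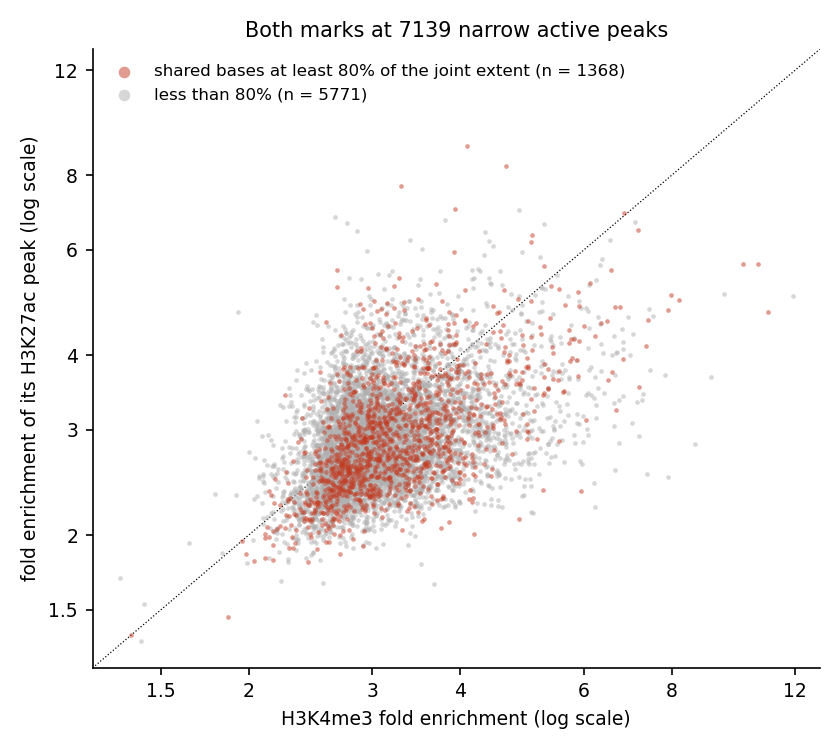
H3K4me3 fold enrichment of each narrow active peak against the fold enrichment of its H3K27ac peak, both on log scales, with 1 dot per peak and a dotted line of equal values. Red dots are the 1368 peaks whose bases shared with H3K27ac make up at least 80% of the joint extent of the 2 peaks, grey dots the other 5771; both clouds slope upward (rank correlation 0.559 and 0.363).

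The overlap with H3K27ac was mostly extensive rather than marginal. The median narrow active peak had 97.7% of its length under H3K27ac, and 4320 (60.5%, 59.4 to 61.6%) had at least 90%. Less than 50% was covered at 1279 (17.9%, 17.0 to 18.8%), and 126 shared fewer than 50 bp, down to a single base. Shared sequence amounted to 3.34 Mb, which was 76.5% of the bases of narrow active peaks and 34.3% of the bases of their H3K27ac peaks. The requirement of 50% cover in place of 1 bp left 5860 peaks.

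Wholly inside their H3K27ac peak lay 2932 narrow active peaks (41.1%, 39.9 to 42.2%), 3548 (49.7%) reached past 1 of its edges and 659 (9.23%) spanned it. Those past an edge were divided evenly between the lower coordinate side (1786) and the upper side (1762). Coordinates do not follow the direction of transcription, so an even split is favoured from the outset. Peaks that spanned their H3K27ac peak were the strongest group by H3K4me3. Their median fold enrichment was 3.24, with 21.7% (18.6 to 25.05%) at 4 or more. The median fold enrichment of their H3K27ac peaks was the lowest of the groups, at 2.67, against 2.98 for peaks wholly inside. The spanning peaks had a median width of 754 bp over H3K27ac peaks with a median of 401 bp, the H3K4me3 peak being the wider one by definition. Peaks wholly inside had a median fold enrichment of 2.96 with 9.04% (8.02 to 10.1%) at 4 or more, and lay in H3K27ac peaks with a median of 1597 bp. The share wholly inside was 19.5% for H3K27ac peaks under 500 bp and 87.1% for those of 4000 bp or more, an order that length alone favours.

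**Figure D4:**
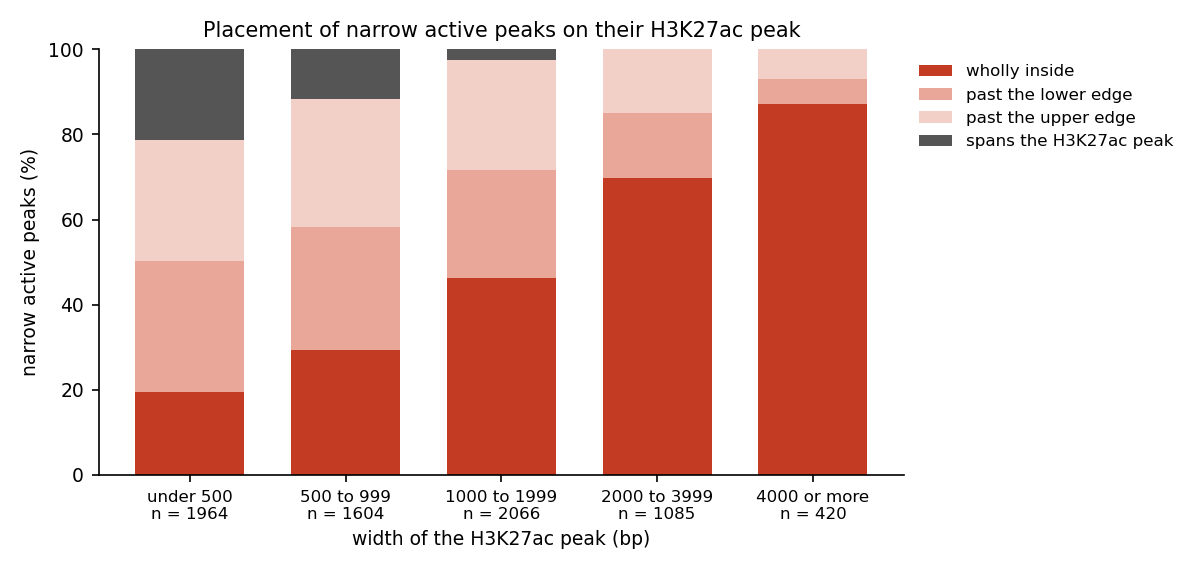
Placement of narrow active peaks on their H3K27ac peak (percent of peaks, stacked) by the width of the H3K27ac peak in bp. The part wholly inside is 19.5, 29.4, 46.3, 69.7 and 87.1% in the 5 width classes. The parts past the lower and the upper edge are of similar size in each, which coordinates without a direction of transcription favour.

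Within wide H3K27ac peaks the narrow active peaks were spread over the whole length. Of the 366 peaks wholly inside an H3K27ac peak of 4000 bp or more, 81, 82, 75, 62 and 66 had their centre in the successive 5 equal parts of it, counted along increasing coordinates. In H3K27ac peaks from 2000 bp to under 4000 bp the counts were 140, 164, 175, 136 and 141. In H3K27ac peaks under 1000 bp, of which the narrow active peak took a median of 73.4% of the width, the middle part held 505 of 853. The direction of transcription was not known here, so a preference for the upstream or the downstream side cannot be read from these counts.

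At 1368 narrow active peaks (19.2%, 18.3 to 20.1%) the H3K4me3 and H3K27ac peaks were nearly the same interval, with shared bases making up at least 80% of their joint extent, and at 826 (11.6%) both edges lay within 50 bp of each other. These coincident sites had H3K27ac peaks with a median of 564 bp, against 1159 bp at the other narrow active peaks. The definition itself favours this, since the 2 peaks must be of similar length. The median H3K4me3 fold enrichment of coincident sites was 3.12 against 2.998, and 14.4% (12.6 to 16.4%) against 10.5% (9.75 to 11.4%) reached 4. Both marks reached 4 at 63 of them (4.61%, 3.56 to 5.85%) and at 125 of the others (2.17%, 1.81 to 2.58%). Among the 100 strongest narrow active peaks 30 were coincident (30.0%, 21.2 to 40.0%), and among the 20 strongest 8 were (40.0%, 19.1 to 63.9%).

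Coincidence was not particular to narrow active peaks. At peaks with both other marks 394 of 1376 (28.6%) coincided with H3K27ac and 399 (29.0%) with H3K27me3, and at peaks with H3K27me3 without H3K27ac 723 of 3312 (21.8%) coincided with H3K27me3. The rank correlation between the fold enrichments was 0.559 at coincident narrow active peaks and 0.363 at the others. The definition itself favours this, since fold enrichment is averaged over each peak and coincident peaks cover nearly the same bases. Coincident peaks of the other classes were not examined in this way.

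Narrow active peaks lay among other H3K27ac peaks. Apart from the H3K27ac peaks they touched, they had on average 3.16 further H3K27ac peaks within 20 kb, close to the 3.26 of broad active peaks, against 1.85 for H3K4me3-only peaks, 1.197 for peaks with H3K27me3 without H3K27ac and 2.37 for peaks with both other marks. At least 1 such H3K27ac peak was present for 87.6% of narrow active peaks (86.8 to 88.3%), for 71.4% of H3K4me3-only peaks (70.6 to 72.2%) and for 79.5% of peaks with both other marks (77.3 to 81.6%). Further H3K27ac lay on both sides of 3980 narrow active peaks (55.8%, 54.6 to 56.9%), on 1 side of 2271 (31.8%) and on neither side of 888 (12.4%). The shares for H3K4me3-only peaks were 33.3%, 38.2% and 28.6% in the same order, and those for peaks with both other marks 43.5%, 36.0% and 20.5%. The difference from H3K4me3-only peaks was present in each size class of chromosome, with means of 2.53 against 1.48 on large, 3.28 against 2.07 on middle and 4.15 against 2.94 on small chromosomes. The rule itself favours such a difference, since overlap with the same H3K27ac list set the 2 classes apart.

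They lay farther from H3K27me3 than H3K4me3-only peaks did, both classes being free of H3K27me3 by definition. The nearest H3K27me3 peak was at a median of 24.0 kb from narrow active peaks (quartiles 10.5 and 48.4 kb) and of 19.6 kb from H3K4me3-only peaks (7.91 and 41.9 kb). Within 5 kb of H3K27me3 lay 862 narrow active peaks (12.1%, 11.3 to 12.9%) and 2062 H3K4me3-only peaks (16.9%, 16.2 to 17.5%). The medians of the 2 classes were 22.7 against 19.2 kb on large, 25.6 against 20.3 kb on middle and 25.8 against 20.6 kb on small chromosomes. Broad active peaks, also free of H3K27me3 by definition, were close to narrow active peaks, with a median distance of 25930.5 bp. Of these broad peaks, 60 lay within 5 kb of H3K27me3 (10.6%, 8.19 to 13.4%). The longer distance was therefore not particular to narrow active peaks. The distance itself depends on how many H3K27me3 peaks are kept, and with q = 0.01 as the limit in the 3 lists, which leaves fewer peaks of every mark, the median for narrow active peaks was 55.7 kb. The 3 narrow active peaks farthest from H3K27me3 all lay on chromosome 33. They were chr33:6966402-6966788 (387 bp, 3.49-fold, 322 kb away), chr33:6895289-6896473 (1185 bp, 3.20-fold, 285 kb) and chr33:7002910-7004001 (1092 bp, 2.88-fold, 285 kb).

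The H3K4me3 peak nearest to a narrow active peak carried H3K27ac without H3K27me3 about as often as it was H3K4me3-only. Neighbours were counted at any width, so broad peaks are among them (5.35% of the neighbours of narrow active peaks). The nearest H3K4me3 peak of any class was at a median of 10.1 kb from narrow active peaks and of 13.4 kb from H3K4me3-only peaks. That neighbour carried H3K27ac without H3K27me3 for 3127 of the 7139 narrow active peaks (43.8%, 42.6 to 45.0%), for 27.1% of H3K4me3-only peaks and for 13.7% of peaks with H3K27me3 without H3K27ac, while such peaks were 30.4% of all H3K4me3 peaks on numbered chromosomes. It was H3K4me3-only for 3082 narrow active peaks (43.2%), and H3K4me3-only peaks were 49.1% of all. Neighbours with the same marks were not particular to narrow active peaks. Peaks with H3K27me3 without H3K27ac had a neighbour with those marks in 41.8% of cases, against 14.3% of all peaks. Where the neighbour lay within 5 kb, the share was 63.9%. An H3K4me3 neighbour within 5 kb was present for 2134 narrow active peaks and 2762 H3K4me3-only peaks. That neighbour carried H3K27ac without H3K27me3 for 54.4% (52.3 to 56.5%) and 30.0% (28.3 to 31.7%) of them. The rule itself favours this difference, since a single H3K27ac peak can cover neighbouring peaks and give them the same class.

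Close groups of narrow active peaks were few. The nearest other narrow active peak was at a median of 28.03 kb, within 5 kb for 1128 (15.8%, 15.0 to 16.7%) and within 1 kb for 62. Joined across gaps under 5 kb, 6011 stood singly, and there were 476 runs of 2, 49 of 3, 6 of 4 and 1 of 5. No 2 H3K4me3 peaks in the list were closer than 919 bp, so sites closer than that do not appear as separate peaks. The share depends on how many peaks are kept, since any thinning of the list lowers it. A neighbour within 5 kb was found for 9.64% of narrow active peaks when the 3 lists were limited to q = 0.01 and for 3.23% when the H3K4me3 fold enrichment had to be at least 4.

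The run of 5 lay on chr15:695433-708514 (13082 bp) over 3 H3K27ac peaks. Its H3K4me3 peaks were 772, 1308, 1084, 738 and 1446 bp wide in order of position, with fold enrichments of 2.96, 2.56, 3.22, 4.42 and 4.87, and the 3 in the middle shared 1 H3K27ac peak of 4.12-fold enrichment. There were 6 runs of 4, of which 2 are given, taken in the order of chromosome names sorted as text. The one on chr17:7444005-7451872 (7868 bp) had 606, 234, 675 and 339 bp peaks of 2.53, 3.39, 2.46 and 2.85-fold enrichment over 3 H3K27ac peaks. The one on chr26:4160258-4171084 lay on a single H3K27ac peak, chr26:4160011-4173903, which at 13893 bp and 3.87-fold enrichment held more narrow active peaks than any other. Its 4 narrow active peaks were 431, 821, 979 and 254 bp wide with 2.73, 3.83, 2.91 and 3.62-fold enrichment. Most of this acetylated stretch thus lay outside narrow active peaks.

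Several narrow active peaks were held by 133 H3K27ac peaks, with 275 narrow active peaks between them. These H3K27ac peaks had a median width of 3665 bp, against 979 bp over all with a narrow active peak, which length alone favours. Successive narrow active peaks in them were 920 to 9697 bp apart, with a median gap of 1283 bp. Of the 7 H3K27ac peaks with 3 narrow active peaks, 2 are given by the same order. On chr13:10894950-10899451 (4502 bp, 2.45-fold) 3 peaks of 1018, 411 and 290 bp had 2.67, 3.91 and 4.28-fold enrichment. On chr13:13620954-13627761 (6808 bp, 3.45-fold) 3 peaks of 1036, 1374 and 446 bp had 3.40, 3.48 and 2.58-fold enrichment. The strongest H3K4me3 signal was thus in the shortest peak at the first of these sites and in the longest at the second.

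The density of narrow active peaks differed more with chromosome size than that of H3K4me3-only peaks. Chromosomes were classed by their span, the largest peak end on them, as large (50 Mb or more, 5 chromosomes), middle (20 to 50 Mb, 7 chromosomes) and small (under 20 Mb, 20 chromosomes). Narrow active peaks numbered 5.76, 8.37 and 12.7 per Mb in these classes, whereas H3K4me3-only peaks numbered 12.7, 12.4 and 13.2 per Mb. Peaks with H3K27me3 without H3K27ac numbered 3.07, 3.08 and 5.32 per Mb and peaks with both other marks 1.31, 1.44 and 1.90 per Mb, so that a higher density on small chromosomes was not particular to narrow active peaks. The share of narrow active peaks among narrow H3K4me3 peaks was 25.2% (24.5 to 25.95%) on large, 33.1% (31.7 to 34.4%) on middle and 38.3% (37.0 to 39.6%) on small chromosomes. The share of H3K27ac peaks with a narrow active peak differed less, at 15.8%, 15.5% and 17.3%. Across the 32 chromosomes the density of narrow active peaks went with the density of H3K27ac peaks (Spearman's rank correlation 0.871, chromosomes of 1 pair of libraries), which the rule itself favours.

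Narrow active peaks changed little in width and median fold enrichment with chromosome size, and more in their placement on H3K27ac. Their median width was 482, 484 and 504 bp and their median fold enrichment 3.04, 3.001 and 2.996 on large, middle and small chromosomes. The share with a fold enrichment of at least 4 was 12.6%, 10.2% and 9.83% in the same order. The share wholly inside H3K27ac was 37.9%, 41.8% and 46.0%, beside a median H3K27ac width of 925, 1035 and 1129 bp.

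Density differed widely between single chromosomes, also among the small ones. Chromosome 28 had the highest density, with 115 narrow active peaks (22.5 per Mb, 49.6% of its 232 narrow peaks), followed by chromosome 26 with 119 (21.9 per Mb, of 238 narrow peaks). Chromosome 18 had 184 (16.2 per Mb, 49.1% of 375). Chromosome 1, the largest, had 1073 (5.43 per Mb, 23.9% of 4482). Chromosome 31 had 12 (1.95 per Mb, 14.8% of 81) and chromosome 16 had 8 (2.83 per Mb, of 32 narrow peaks), the lowest densities of all. H3K4me3-only peaks were sparse there too (3.58 and 3.18 per Mb), as were H3K27ac peaks (10.1 and 12.4 per Mb). Of the narrow peaks on these chromosomes, 45 of 81 and 15 of 32 had H3K27me3 without H3K27ac. On chromosomes 27 and 33 narrow active peaks made up 27.4% and 26.9% of narrow peaks, beside 162 of 372 and 108 of 238 narrow peaks with H3K27me3 without H3K27ac.

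**Figure D5:**
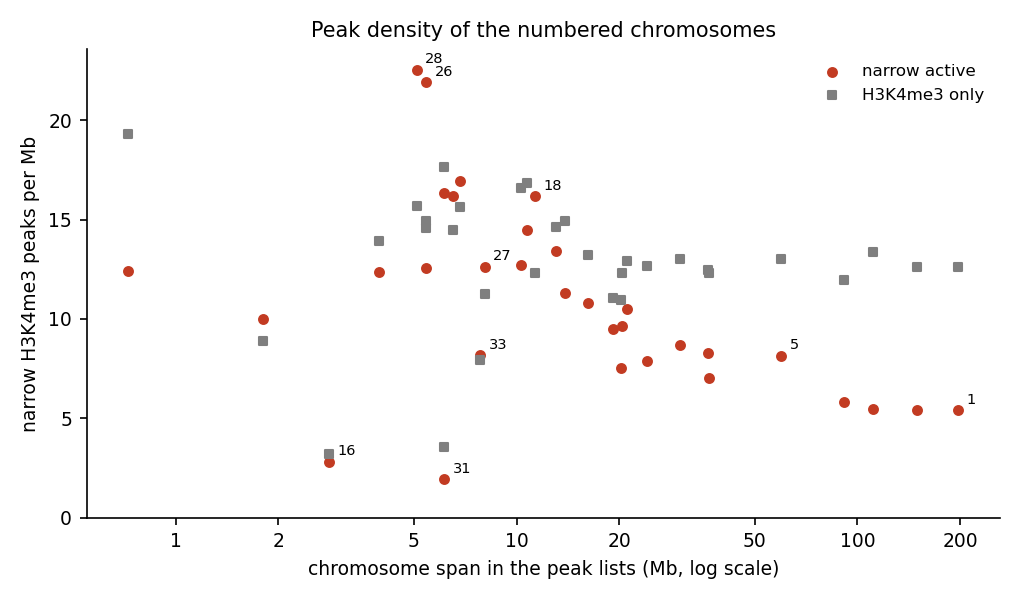
Density of narrow active peaks (red circles) and H3K4me3-only peaks (grey squares) per Mb against chromosome span in Mb on a log scale, with 1 point of each kind per numbered chromosome and some chromosome numbers beside the red circles. On chromosomes 1 to 5 red circles lie at 5.43 to 8.16 per Mb and grey squares at 11.97 to 13.4 per Mb; over all chromosomes red circles range from 1.95 to 22.5 per Mb and grey squares from 3.18 to 19.3 per Mb, and chromosome 28 has 22.5 and 15.7 per Mb.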

How the data were processed

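The members and the lists described here were chosen with earlier results of these data known. Per the study's methods and processing notes, the authors trimmed reads with Trim Galore, aligned them with BWA to GalGal6 in the NF-core ChIP-seq pipeline and ran MACS2 in broad mode (false discovery rate under 0.1) on each library. Whether the input served as control is not given in the sources used here. The deposited fold enrichment is a linear ratio over local background. The deposited −log10 p-value and −log10 q-value are means over each peak, and the deposited score was not used.

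Coordinates are 1-based on GalGal6. The width limit of 1570 bp bounds the widest 5% of H3K4me3 peaks. Overlap was counted from 1 bp, and distances run between peak edges. Where a peak met several peaks of a mark, the one with most shared bases was used. The 95% intervals of shares are exact (Clopper-Pearson), describe counting error alone and assume independent peaks. With 1 library per mark there is no replicate, p-value or standard deviation. Positions named are the 5 strongest members, the 5 on each side of the width limit, the narrowest, the 3 H3K27ac peaks with most members, the 3 longest runs and the 3 members farthest from H3K27me3, with ties taken by chromosome (names sorted as text) and position; single chromosomes were picked after their values were seen. Genes and sequences were not analysed here. Overlap and distance code was tested on simulated peaks. Python 3.11.15, pandas 2.3.3, numpy 2.4.6 and scipy 1.17.1 were used, and 9 alternatives were tried.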

Additional observations from a re-analysis of the deposited data

How the results depend on the processing

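The 9 alternatives gave 108 values, of which 60 stayed within the 95% interval of the value reported or, for counts, ratios and rank correlations, within 1.5 times of it, and 48 moved further. Some of these outcomes were fixed in advance, so the 2 counts are no measure of robustness. The use of all sequences cannot change the values for small chromosomes. A limit on H3K4me3 fold enrichment sets the share at 4 or more and raises the median. The comparisons with the other classes of peaks were not recomputed under these alternatives. A limit of q = 0.01 on the 3 lists left 2955 narrow active peaks, with a median fold enrichment of 3.52, 42.9% wholly inside H3K27ac, 9.64% with another within 5 kb and a median of 55.7 kb to H3K27me3. An H3K4me3 fold enrichment of at least 4 left 805 peaks, 46.3% of the narrow peaks then kept, with a median fold enrichment of 4.55, 32.9% inside, 3.23% with another within 5 kb and 25.8 kb to H3K27me3. Both filters leave fewer peaks by construction. When H3K27ac had to cover at least 50% of the peak, the share of narrow peaks was 24.4%, the median fold enrichment 3.05, the share inside 50.03% and that with another within 5 kb 14.5%. With 50% of the shorter peak these were 26.9%, 3.04, 46.0% and 14.9%. A width under 1000 bp gave a share of 28.3%, 43.3% inside and 12.9% with another within 5 kb, and no upper limit on width gave 30.4%, a median fold enrichment of 3.04, 39.6% and 17.6%. Merging of H3K4me3 peaks within 1 kb gave 14.9% with another within 5 kb, and all sequences gave a share of 28.7%. Exclusion of H3K27me3 within 1 kb left 7029 peaks. The density on small over large chromosomes was 2.20 and ranged from 1.71 to 2.27 over the alternatives. No paired analysis was possible because there is 1 library per mark. Depth is unknown, so an absent overlap may be a peak that was not called.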

Other observations

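In windows of 1 Mb, narrow active peaks were less evenly spread than H3K4me3-only peaks. Of 945 windows, 46 (4.87%) held no narrow active peak and 1 held no H3K4me3-only peak. The fullest 94 windows of each class held 27.6% of the narrow active peaks and 16.3% of the H3K4me3-only peaks. A class with fewer peaks leaves more windows empty and has a larger share in its fullest windows. The rule also ties narrow active peaks to the H3K27ac peaks. How much of the difference these account for was not tested. The median window held 6 narrow active peaks and 13 H3K4me3-only peaks, yet the fullest held 36 and 27. The windows with most narrow active peaks, picked after their counts were seen, were chr28:2000001-3000000 with 36, chr18:9000001-10000000 with 33, chr17:5000001-6000000 and chr18:4000001-5000000 with 31 each, and chr18:3000001-4000000 with 29.

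The large chromosomes also had a higher density of narrow active peaks near their ends. On chromosomes 1 to 5, the outer 10% of the span at each end had 6.78 narrow active peaks per Mb, against 5.51 per Mb between them. H3K4me3-only peaks had 12.6 per Mb at the ends and 12.7 per Mb between them. The contrast for narrow active peaks was widest on chromosome 4 (9.42 against 4.92 per Mb) and small on chromosome 1 (5.77 against 5.35 per Mb). The rule ties narrow active peaks to the H3K27ac peaks, whose density at the ends was not examined here. These values come from 1 pair of libraries and have no replicate.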
